A study of Rattus norvegicus with 8 samples.

Results

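The let-7 family with its close relative miR-98 was followed across 8 small RNA libraries of rat femur bone taken around titanium implants. Members were chosen by name: every row called let-7a, 7b, 7c, 7d, 7e, 7f, 7g, 7i or miR-98, whatever its copy number or arm. The names carry the rat prefix in the table, as in rno-let-7f-5p, rno-let-7a-5p, rno-let-7c-5p, rno-let-7g-5p, rno-let-7i-5p and rno-miR-98-5p, and are given without it from here on. This gave 21 of the 604 catalogued rat rows (and of 974 rows in all), 9 of them guide arms (5p) and 12 passenger arms (3p). The hyperlipidemic group (4 libraries, replicates 1 to 4) came from male Wistar rats on a high-fat diet, and the normal group (4 libraries, replicates 1 to 4) from male Wistar rats on a normal diet, each for 8 weeks. All rats carried implants in both femoral shafts, so neither group is unoperated bone. Bone within 1 mm of the implant was taken 10 days after implantation, at an age of 12 to 13 weeks. The labels do not say whether a library is 1 rat, 1 femur or a pool, so the p-values measure the spread between libraries.

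A let-7 hairpin is cut into a guide strand, which enters Argonaute and pairs with target transcripts through its seed (bases 2 to 8), and a passenger strand, most of which is degraded. The family is known for rising as cells leave the stem state and differentiate, for repressing growth genes such as Hmga2, Ras and Myc, and for being held back by the RNA-binding protein Lin28, which blocks the processing of its precursors. In mesenchymal cells let-7 has been described as favouring bone formation over fat. Several let-7 members are encoded at more than 1 place in the genome, and reads of a guide cannot be traced to a copy, whereas the passenger strands mostly differ between copies.

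The 9 guide sequences are printed to show how alike the members are and where, outside the shared seed, they differ. They are RefSeq mature sequences of the build GRCr8, written 5′ to 3′, with the seed in capitals.
let-7a-5p: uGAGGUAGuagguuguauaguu
let-7b-5p: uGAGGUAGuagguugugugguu
let-7c-5p: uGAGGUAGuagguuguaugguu
let-7d-5p: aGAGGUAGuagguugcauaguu
let-7e-5p: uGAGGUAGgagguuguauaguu
let-7f-5p: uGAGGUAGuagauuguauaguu
let-7g-5p: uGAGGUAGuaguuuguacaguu
let-7i-5p: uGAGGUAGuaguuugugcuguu
miR-98-5p: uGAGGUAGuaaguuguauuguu
All 9 guides are 22 bases long and share the seed GAGGUAG, and no other row of the table with a RefSeq sequence had it. Counted from 1 at the 5′ end, and with the base of let-7a-5p first, let-7f-5p differs from let-7a-5p by G12A, let-7c-5p by A19G and let-7e-5p by U9G, while let-7b-5p carries A17G and A19G. Let-7d-5p carries U1A and U16C, let-7g-5p G12U and U18C, miR-98-5p G11A and A19U, and let-7i-5p G12U, A17G, U18C and A19U. Of the 36 pairs of guides, 4 are 1 base apart and 10 are 2 bases apart, so a read with an error or a trimmed end may be credited to a relative. The labels and headers do not state how the authors assigned such reads.

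The libraries differed in depth and in the signal of blood-cell miRNAs, and these values stand beside several results. The catalogued class rested on 2643501 to 4809893 recovered reads per hyperlipidemic library and on 990804 to 1748974 per normal library, so every hyperlipidemic library was deeper. Normal replicates 3 and 4 stood apart: the red-cell miRNAs miR-144-3p, miR-144-5p, miR-451-5p and miR-486 held 8.95% and 7.77% of the catalogued signal there, against 17.9% to 33.1% in the other 6 libraries. The 4 leukocyte rows of miR-142 and miR-223 held 9.34% and 6.08% in these libraries against 14.8% to 20.2%. The 5 rows of mesenchymal and bone-forming cells (miR-199a, miR-214, miR-218a and miR-335) were above 0 in every library. They held 6.81% and 7.28% in normal replicates 3 and 4 against 2.61% to 5.83%. Single rows did not all follow these 3 sums. MiR-199a-5p was highest in normal replicates 3 and 4. In normal replicate 4, miR-214-3p was lowest of all and miR-335 was above hyperlipidemic replicate 3 alone. Of the blood-cell rows, miR-144-5p and miR-223-5p were highest in normal replicate 3, and miR-486 in normal replicate 4. Striated-muscle rows held 0.0263% to 0.862%. The lymphocyte rows miR-150-5p and miR-342-3p held 0.251% and 0.332% in normal replicates 3 and 4, against 0.326% to 0.467% in the other 6. Endothelial rows (miR-126a) held 1.86% and 1.65% there against 0.912% to 1.77%. Neither sum set both libraries apart. Cartilage rows (miR-140) held 0.736% and 0.528% against 0.261% to 0.507%. Epithelial rows held 0.0253% and 0.0225% against 0.0357% to 0.0469%, though miR-200c-3p was highest there. In bulk bone, fewer cells of a type and less RNA per cell cannot be told apart.

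The guide arms were among the abundant miRNAs of this bone. Levels are given as reads per 1000000 reads of the catalogued class (RPM), the authors' scaling, and adapter ligation favours some sequences over others, so levels of different members are a rough guide to their amounts. Let-7f-5p was the most abundant member, at a mean of 20059.9 RPM over the 8 libraries and rank 11 among catalogued miRNAs, followed by let-7a-5p (9914 RPM, rank 21), let-7c-5p (7804 RPM, rank 27), let-7g-5p (7192 RPM, rank 30) and let-7i-5p (5752 RPM, rank 33). Let-7b-5p (2846 RPM) and let-7d-5p (2263 RPM) came next, and miR-98-5p (539 RPM) and let-7e-5p (456 RPM) were the least abundant guides. The highest and the lowest guide mean were 44.0-fold apart. Over the libraries the ranges of neighbours in this order overlapped, except between let-7d-5p and miR-98-5p. Within a library the order held in all 8 libraries for each pair of neighbours but let-7c-5p over let-7g-5p and miR-98-5p over let-7e-5p, which held in 5 of 8. Each guide was backed by 388 to 71539 recovered reads in every library.

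**Figure D1:**
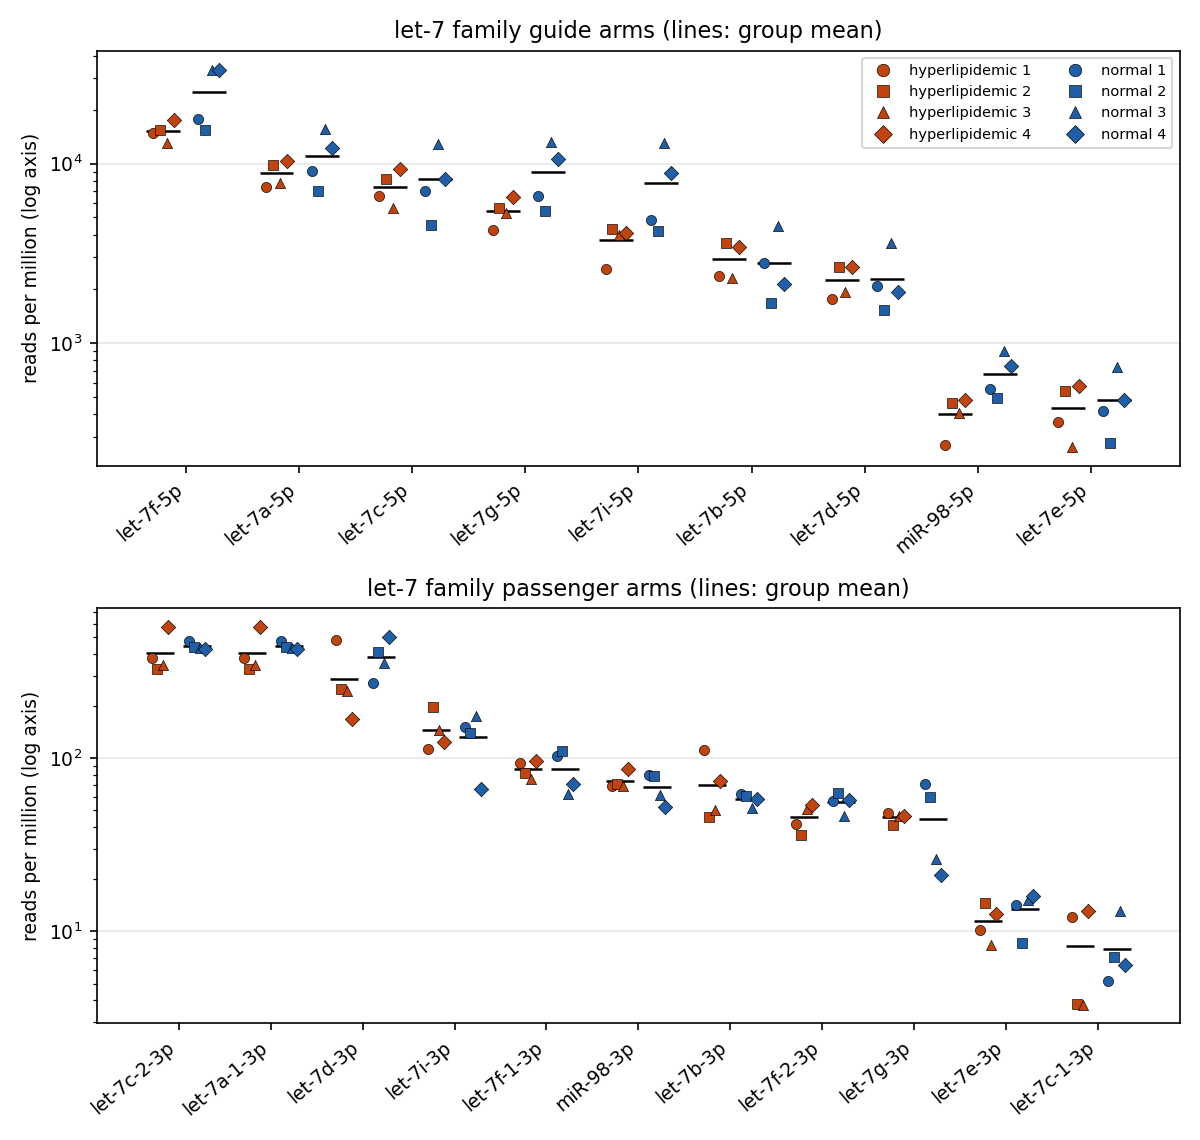
Reads per 1000000 of the catalogued class (log axis) of the 9 guide arms (upper panel) and the 11 passenger arms that passed the filter (lower panel) in each library, with lines at the group means. All 9 guides have their highest value in normal replicate 3, and let-7f-5p stands far above the other 6 libraries in normal replicates 3 and 4.

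Of all 9 guides, the 4 with the lowest folds in hyperlipidemic bone were let-7i-5p, miR-98-5p, let-7g-5p and let-7f-5p, but none passed the threshold. In the limma test across the 696 miRNAs of the whole table, 0 of the 20 tested family rows had an adjusted p under 0.05 (0.718% of all tested miRNAs were called). At an unadjusted p under 0.05 it was 2 of 20, or 10.0%, against 17.8% of all tested miRNAs and 15.7% of catalogued ones. Voom on recovered reads called 0 family rows and 0 of all 396 catalogued miRNAs it tested. It had 2 family rows at an unadjusted p under 0.05, and the share of the 396 under that p with voom is not given here. Of the 20 rows 13 (65.0%) had a log2 fold below 0, against 61.9% of the 396 catalogued miRNAs and 55.2% of all miRNAs tested. The median log2 fold was -0.26 over the 9 guides and -0.09 over the 11 tested passengers, against -0.20 over catalogued miRNAs and -0.10 over all tested. With median-of-ratios scaling these 4 medians were 0.00, 0.15, 0.05 and 0.11, so the direction of the whole family depends on the scaling.

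Let-7i-5p had the largest difference. It stood at 2573, 4330.5, 3980 and 4108 RPM in hyperlipidemic libraries and at 4848, 4217, 13054 and 8908 RPM in normal ones. Normal replicates 3 and 4 were high, and normal replicates 1 and 2 lay in or just above the hyperlipidemic range. The means were 3748 ± 796 and 7757 ± 4098 RPM (SD, n = 4 per group), with a log2 fold of -0.93 (SE 0.38, limma adjusted p = 0.250). Without normal replicates 3 and 4 the log2 fold was -0.30.

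MiR-98-5p was the only guide whose groups did not overlap, which makes 1 of 9 guides (11.1%) against 12.6% of all tested miRNAs (9.05% in the lower direction). It stood at 269, 460.2, 404 and 479 RPM in hyperlipidemic and at 556, 494, 900.3 and 747 RPM in normal libraries. The highest hyperlipidemic value lay just below the lowest normal one, and normal replicates 3 and 4 were again the highest. The means were 403 ± 95.1 and 674 ± 185 RPM (SD, n = 4 per group), with a log2 fold of -0.74 (SE 0.29, limma adjusted p = 0.239), and the log2 fold without normal replicates 3 and 4 was -0.41.

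Let-7f-5p and let-7g-5p shared the same picture. Let-7f-5p stood at 14873, 15362, 13011 and 17509 RPM in hyperlipidemic and at 17650, 15352, 33386 and 33335 RPM in normal libraries (log2 fold -0.63, SE 0.30, limma adjusted p = 0.296). Let-7g-5p stood at 4254, 5650.1, 5288 and 6476 RPM in hyperlipidemic and at 6557, 5445, 13252 and 10616 RPM in normal libraries (log2 fold -0.65, SE 0.31, limma adjusted p = 0.296). In both the normal group was split, with replicates 1 and 2 at the hyperlipidemic level and replicates 3 and 4 well above it. Without replicates 3 and 4 the log2 folds were -0.12 and -0.16.

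The other 5 guides had log2 folds near 0 with wide overlap. Let-7a-5p stood at 7441 to 10362 RPM in hyperlipidemic and 7004 to 15625 RPM in normal libraries (log2 fold -0.26, SE 0.28), and let-7c-5p at 5615 to 9326 against 4529 to 12912 RPM (log2 fold -0.06, SE 0.33). The log2 fold was -0.12 (SE 0.37) for let-7e-5p, 0.03 (SE 0.30) for let-7d-5p and 0.14 (SE 0.33) for let-7b-5p. Their limma adjusted p ran from 0.615 for let-7a-5p to 0.955 for let-7d-5p. In the authors' deposited table all 21 family rows are called unchanged, whereas 203 of all 974 rows are called. Of the family rows 2 have a p under 0.05 (let-7a-2-3p and let-7f-2-3p), and the lowest adjusted p of a member is 0.236. The share of all rows under that unadjusted p is not given here.

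**Figure D2:**
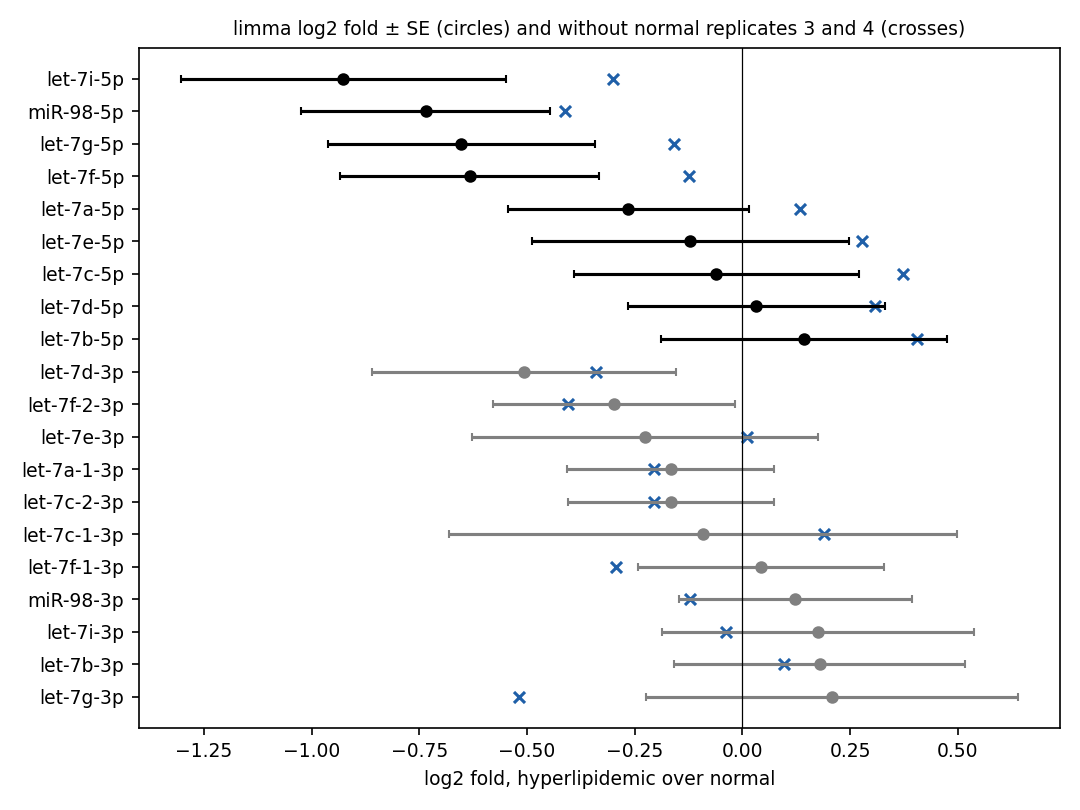
Log2 fold of hyperlipidemic over normal with its SE from limma for the 9 guides (black circles) and 11 passengers (grey circles), and the same fold without normal replicates 3 and 4 (crosses). Let-7i-5p, miR-98-5p, let-7g-5p and let-7f-5p lie lowest, and all 9 guide folds shift upward when those libraries are left out.

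Taken as a sum, the 9 guides held 4.52%, 5.67%, 4.46% and 6.19% of the catalogued signal in hyperlipidemic and 5.75%, 4.55%, 11.5% and 9.01% in normal libraries. Only normal replicates 3 and 4 were above the range of the rest. These are the libraries with the lowest sums of red-cell and leukocyte rows, though miR-486, miR-144-5p and miR-223-5p were not low there. The means were 5.21% ± 0.861 and 7.69% ± 3.14 (SD, n = 4 each), and sums over the members were not tested. With the red-cell miRNAs taken out of the denominator the 2 libraries remained the highest, at 12.6% and 9.77% against 5.54% to 7.67% in the other 6. The part of the blood-cell content in the family's level beyond this was not tested.

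For some guides the part in the guide pool lay apart between the groups, with normal replicates 1 and 2 as well as with 3 and 4. Each guide was expressed as a percent of the summed guides of its own library, which removes the library's scale. For 4 of the 9 guides (44.4%) the groups did not overlap, all 4 higher in hyperlipidemic bone. Among the 396 tested catalogued miRNAs divided by the same sum, 5.3% did not overlap in either direction and 12 (3.03%) were higher without overlap, and these 4 guides are among them. The guides are parts of the sum they are divided by, so their parts are bound to one another. The 44.4% is therefore not like for like with the 5.3%, and the composition has no test.

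Let-7a-5p made up 18.4%, 19.3%, 19.2% and 18.9% of the guides in hyperlipidemic and 17.8%, 17.3%, 16.0% and 15.6% in normal libraries. Let-7b-5p made up 5.81%, 7.12%, 5.66% and 6.23% against 5.49%, 4.09%, 4.60% and 2.72%. Let-7d-5p made up 4.35%, 5.25%, 4.76% and 4.82% against 4.09%, 3.78%, 3.66% and 2.43%. In each of these 3, normal replicates 1 and 2 already lay below all hyperlipidemic libraries.

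Let-7c-5p made up 15.9% ± 1.38 in hyperlipidemic against 12.1% ± 1.60 (SD, n = 4 each), but its groups were barely apart, with a lowest hyperlipidemic value of 13.84% and a highest normal one of 13.78%. Let-7e-5p (0.913% ± 0.193 against 0.717% ± 0.0887) overlapped. The remaining guides had lower mean parts in hyperlipidemic bone, all with overlap. These were let-7f-5p at 32.8% ± 2.74 against 37.2% ± 3.84, let-7g-5p at 11.6% ± 1.08 against 13.3% ± 0.324, let-7i-5p at 8.05% ± 1.48 against 11.1% ± 1.64 and miR-98-5p at 0.861% ± 0.142 against 1.04% ± 0.138 (SD, n = 4 each).

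**Figure D3:**
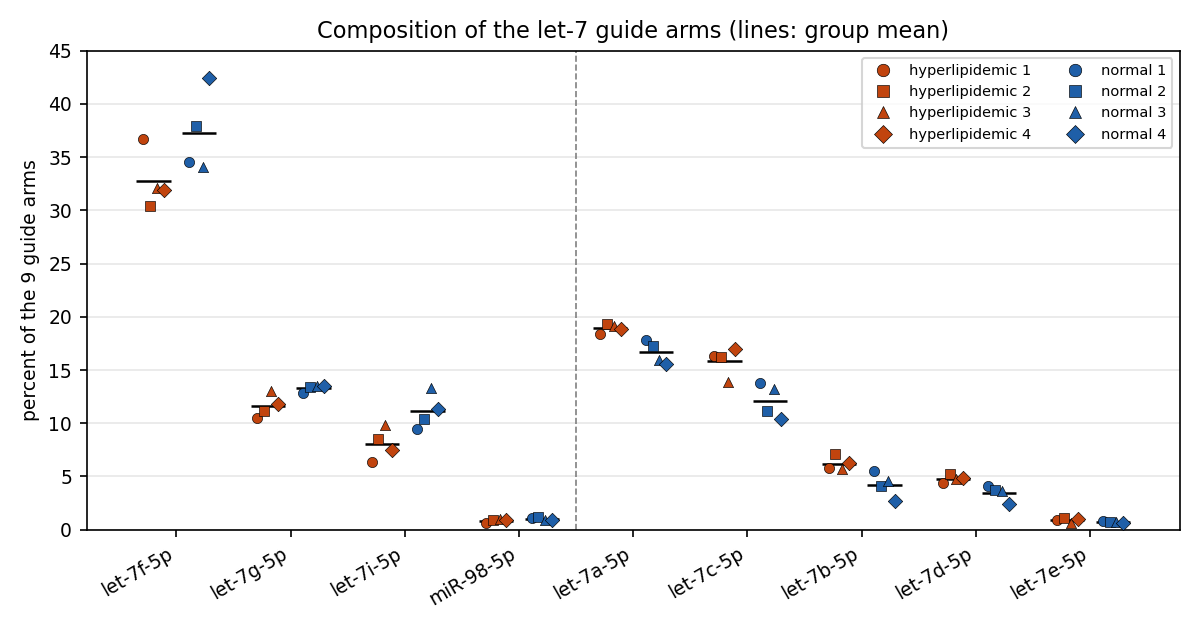
Percent of the summed 9 guide arms contributed by each guide in every library, with lines at the group means, the 4 guides without GG at bases 11 and 12 left of the dashed line. Let-7a-5p, let-7b-5p, let-7c-5p and let-7d-5p lie higher in all hyperlipidemic libraries than in any normal one.

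By the direction of their mean part, the guides divide as bases 11 and 12 of their sequences do. Let-7a, 7b, 7c, 7d and 7e carry GG at bases 11 and 12, whereas let-7f (GA), let-7g and let-7i (GU) and miR-98 (AG) do not. This division was seen after the values and is given as a description. The 4 guides without GG made up 54.2%, 51.0%, 55.9% and 52.0% of the guide pool in hyperlipidemic libraries and 58.0%, 63.0%, 61.9% and 68.2% in normal libraries. Every normal library was above every hyperlipidemic one, normal replicates 1 and 2 included. The division was picked because it follows the direction of these same parts, so a lower hyperlipidemic mean follows from the choice. The guides with GG make up the rest of the pool and mirror this sum. Neither sum is support for the division. Content of G and C followed the division in part. Let-7f-5p and miR-98-5p, without GG, have the lowest content (31.8% each) and let-7b-5p, with GG, the highest (45.5%). Between them, let-7i-5p has 40.9%, as have let-7c-5p, let-7d-5p and let-7e-5p, and let-7g-5p has 36.4%, as has let-7a-5p.

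Ratios to let-7a-5p within a library restate these parts with another divisor. Let-7a-5p was itself among the guides with a higher part in hyperlipidemic bone, so the ratios are no separate support for the division. Let-7g-5p per let-7a-5p was 0.572, 0.579, 0.680 and 0.625 in hyperlipidemic and 0.722, 0.777, 0.848 and 0.866 in normal libraries. Let-7i-5p per let-7a-5p ran from 0.346 to 0.512 against 0.534 to 0.835, and miR-98-5p per let-7a-5p from 0.0361 to 0.0520 against 0.0576 to 0.0705. These 3 ratios were lower in all hyperlipidemic libraries, and let-7d-5p per let-7a-5p was higher in all (0.237 to 0.272 against 0.156 to 0.230). That makes 4 of 8 ratios without overlap (50.0%), against 8.35% of 395 catalogued miRNAs divided by let-7a-5p (7.34% lower and 1.01% higher). The divisor is itself a guide of the family, so the 50.0% is not like for like with the 8.35%. The other 4 ratios overlapped. Let-7f-5p per let-7a-5p was 1.57 to 2.00 in hyperlipidemic against 1.94 to 2.72 in normal libraries, let-7b-5p 0.295 to 0.369 against 0.174 to 0.308, let-7c-5p 0.722 to 0.900 against 0.647 to 0.826 and let-7e-5p 0.0338 to 0.0554 against 0.0393 to 0.0469. Let-7b-5p and let-7c-5p, which did not overlap as parts of the guide pool, thus overlapped with this divisor. Depth separates the groups as well, and its part in the composition cannot be told apart from that of the diet.

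**Figure D4:**
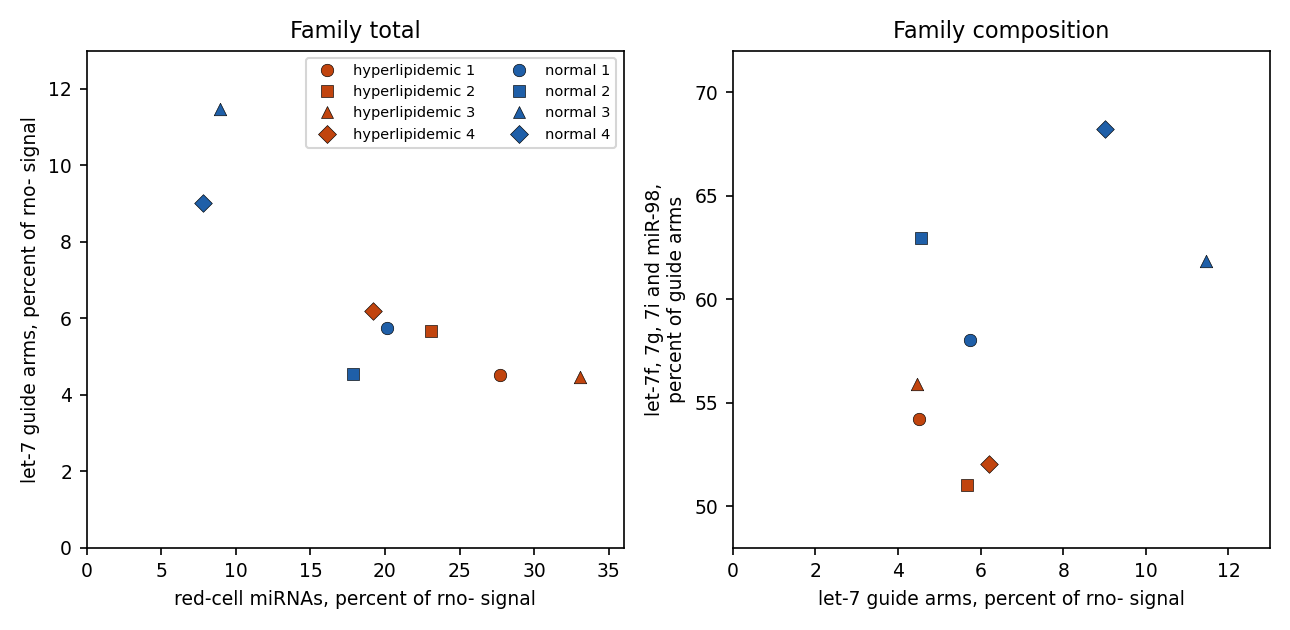
Left, guide arms as a percent of the catalogued signal against the red-cell miRNAs as a percent of the same signal, and right, let-7f, 7g, 7i and miR-98 as a percent of the guide arms against the guide total, 1 point per library. The family total is high in normal replicates 3 and 4 alone. The summed part of the 4 guides is higher in the 4 normal libraries (58.0% to 68.2%) than in the 4 hyperlipidemic ones (51.0% to 55.9%). These 4 were put together after their values were seen, so the gap is descriptive, and each overlaps between the groups by itself.

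The passenger arms were scarce. RefSeq sequences were found for 20 of the 21 members, all but let-7c-1-3p. Sequences are shown for the most abundant passengers, with bases 2 to 8 in capitals.
let-7a-1-3p: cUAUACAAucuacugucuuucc
let-7c-2-3p: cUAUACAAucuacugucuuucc
let-7f-1-3p: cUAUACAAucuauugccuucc
let-7b-3p: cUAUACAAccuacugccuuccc
miR-98-3p: cUAUACAAcuuacuacuuucc
let-7f-2-3p: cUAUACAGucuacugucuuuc
let-7d-3p: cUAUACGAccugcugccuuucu
let-7i-3p: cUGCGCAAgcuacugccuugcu
The first 5 share bases 2 to 8 (UAUACAA). Let-7a-2-3p and let-7g-3p, not printed, share another seed (UGUACAG). Let-7a-1-3p and let-7c-2-3p are the same RNA from different hairpins, and their rows held the same number of reads in 6 libraries and differed by 1 read in the other 2, so both rows list the same reads and are counted once in sums. Counts of rows, medians and arm pairs hold both.

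With that sequence counted once, the passengers held 0.152%, 0.121%, 0.114% and 0.141% of the catalogued signal in hyperlipidemic and 0.145%, 0.155%, 0.146% and 0.147% in normal libraries. These values were nearly level, also in normal replicates 3 and 4, where the guides were at their highest. Per 100 of guide signal there were 3.36, 2.12, 2.56 and 2.27 of passenger signal in hyperlipidemic and 2.53, 3.41, 1.27 and 1.63 in normal libraries. Normal replicates 3 and 4 had the lowest ratios of the 8.

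Single passengers did not differ past the threshold. The shared let-7a-1-3p and let-7c-2-3p sequence stood at 379.8, 328, 345 and 571 RPM in hyperlipidemic and at 473, 441, 435 and 429 RPM in normal libraries in the let-7a-1-3p row (log2 fold -0.17, SE 0.24, limma adjusted p = 0.709). Let-7d-3p had the lowest passenger fold, at 479.8, 250.4, 243 and 169 RPM against 273, 413, 356 and 503 RPM (log2 fold -0.51, SE 0.35, limma adjusted p = 0.437). Its groups overlapped, with hyperlipidemic replicate 1 second only to normal replicate 4. The other tested passengers had log2 folds from -0.30 (let-7f-2-3p) to 0.21 (let-7g-3p).

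Let-7a-2-3p is the member that fell below the filter. Its reads numbered 8, 5, 4 and 7 in the hyperlipidemic libraries, and 0, 1, 0 and 1 in the normal ones. Over the groups this is 24 reads of 13942574 against 2 of 5694244, a ratio of rates of 4.90 with an exact 95% interval of 1.22 to 42.8 that covers counting error only.

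The balance between passenger and guide varied widely among the hairpins. Let-7d and miR-98 had the highest ratios, and the let-7d hairpin is printed here to show both arms, with the guide (bases 14 to 35) and the passenger (bases 68 to 89) in capitals (RefSeq, GRCr8).
let-7d hairpin: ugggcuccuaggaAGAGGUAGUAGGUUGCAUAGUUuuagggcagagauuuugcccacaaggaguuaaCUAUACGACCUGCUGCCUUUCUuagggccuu
Let-7d-3p per 100 of let-7d-5p came to 27.2, 9.43, 12.6 and 6.38 in hyperlipidemic and to 13.1, 27.0, 9.94 and 26.3 in normal libraries, so high and low values occurred in both groups. Averaged over the 8 libraries it was 16.5, and that of miR-98-3p per 100 of its guide was 15.1, but the order of these hairpins was not stable: miR-98 was higher in 4 of 8 libraries and in the hyperlipidemic mean (19.1 against 13.9). Next came let-7c-2-3p at 5.88 and let-7a-1-3p at 4.53. The lowest of the tested were let-7f-1-3p at 0.501, let-7f-2-3p at 0.282 and let-7c-1-3p at 0.106. The ratios of let-7a, let-7c and let-7f set a passenger of 1 hairpin against a guide made by several, and the shared sequence stands in both let-7a and let-7c.

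The arm ratio was tested in limma over 150 catalogued arm pairs. None of the 11 family pairs passed (0 of the 150 did, at 0% called). At an unadjusted p under 0.05 it was 2 family pairs, or 18.2%, against 21.3% of all pairs. Of the 11 pairs 7 (63.6%) were higher in hyperlipidemic bone, against 51.3% of all pairs, and the median log2 difference was 0.10 against 0.01.

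The largest differences were those of let-7i, at 4.41, 4.58, 3.66 and 3.004 of let-7i-3p per 100 of let-7i-5p in hyperlipidemic and 3.14, 3.31, 1.35 and 0.742 in normal libraries (log2 difference 1.10, SE 0.46, limma adjusted p = 0.191). MiR-98-3p per 100 of miR-98-5p came to 25.6, 15.5, 17.0 and 18.1 against 14.5, 16.1, 6.84 and 7.05 (log2 difference 0.86, SE 0.38, limma adjusted p = 0.218). For let-7g the ratio was 1.13, 0.725, 0.880 and 0.722 against 1.08, 1.11, 0.198 and 0.199 (log2 difference 0.86, SE 0.57, limma adjusted p = 0.368). In all 3 the low values were those of normal replicates 3 and 4, and without them the log2 differences were 0.26, 0.29 and -0.36.

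**Figure D5:**
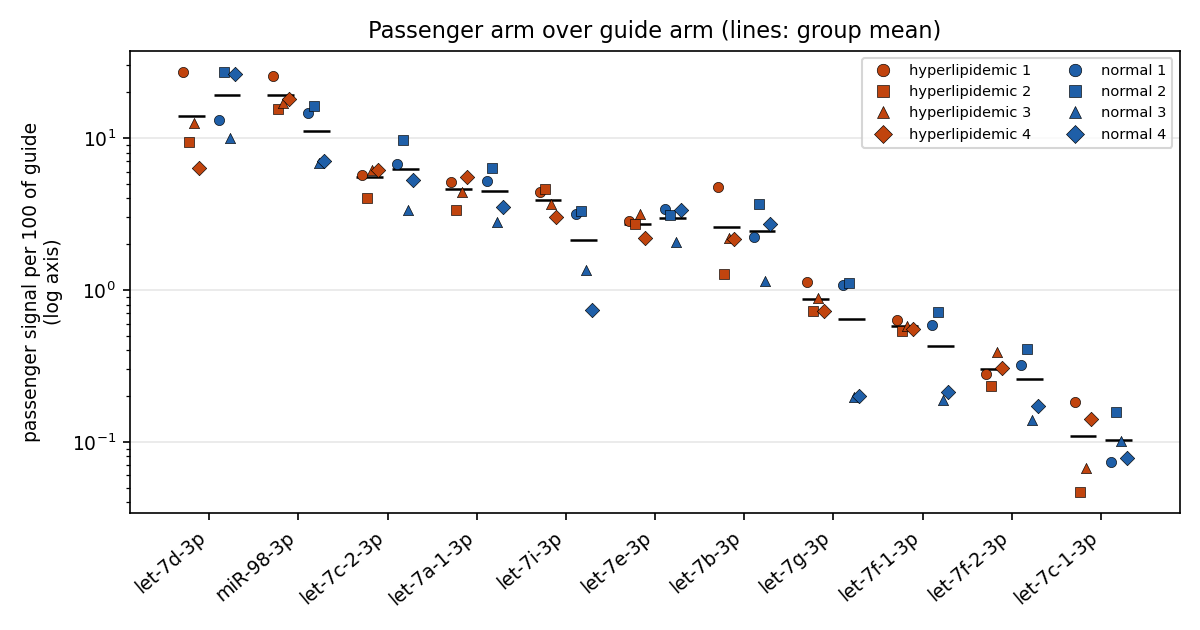
Passenger signal per 100 of guide signal (log axis) for 11 passenger arms in each library, with lines at the group means. Let-7i, let-7g, let-7f and miR-98 ratios are lowest in normal replicates 3 and 4, and let-7d is spread from 6.38 to 27.2 across both groups.

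Passengers tell apart hairpins that share a guide. Let-7f-5p comes from 2 hairpins, and let-7f-1-3p outnumbered let-7f-2-3p in every library, with 0.435 to 0.675 of let-7f-2-3p per let-7f-1-3p in hyperlipidemic and 0.550 to 0.802 in normal libraries. In the RefSeq annotation of GRCr8, used here for neighbours alone, let-7f-2 lies beside miR-98 within the gene Huwe1, a ubiquitin ligase. Their passengers stood at a ratio of 0.607, 0.502, 0.742 and 0.619 in hyperlipidemic and 0.702, 0.793, 0.754 and 1.09 in normal libraries, with overlap. Let-7a-1, let-7f-1 and let-7d lie together, as do let-7c-2 and let-7b, and let-7g lies within Wdr82. The hairpin opposite let-7f-1 encodes rno-miR-3596d, the complement of the let-7f guide, and its row held 1 read over the 8 libraries.

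Other let-7 hairpins have neighbours of the miR-99, miR-100 and miR-125 families, miRNAs that are often made from 1 transcript with let-7. In the annotation let-7e lies beside miR-99b and miR-125a, let-7c-1 beside miR-99a and let-7a-2 beside miR-100. Of the 11 rows of these families tested, 0 passed in limma and 0 had an unadjusted p under 0.05, against 15.7% of catalogued miRNAs at that level. Of the 11, 10 had a log2 fold below 0 (median -0.52), against 61.9% of catalogued miRNAs (median -0.20). MiR-100-5p stood at 2757, 1689, 1803 and 3038 RPM in hyperlipidemic and at 2468, 2429.8, 3831 and 7776 RPM in normal libraries (log2 fold -0.70, SE 0.40, limma adjusted p = 0.345). MiR-125a-5p stood at 3327, 2587, 1997 and 3185 RPM against 3142, 2663, 5529.9 and 4977 RPM (log2 fold -0.52, SE 0.30, limma adjusted p = 0.351). As in the let-7 guides, the high values were those of normal replicates 3 and 4. MiR-99a-5p and miR-125b-5p, the most abundant of these rows, were at log2 folds of -0.11 (SE 0.33) and -0.03 (SE 0.32), and miR-99a-3p was the only one above 0 (log2 fold 0.75, SE 0.35, limma adjusted p = 0.293).

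Outside the family, the 5 of 376 tested catalogued miRNAs whose log2 level followed that of the summed guides most closely over the 8 libraries were miR-194-5p (Pearson's r = 0.97), miR-1839-5p (0.96), miR-22-3p (0.96), miR-452-5p (0.94) and miR-99b-3p (0.93). They were picked as the highest of 376, so no p is given. Normal replicates 3 and 4 lie farthest from the median, and without them r was 0.93, 0.84, 0.74, 0.76 and 0.74 in the same order. MiR-452-5p (2.65 to 17.16 RPM) and miR-99b-3p (2.29 to 12.11 RPM) stood at low levels, so their r rests on few reads. MiR-22-3p stood at 1595, 2045, 1371 and 1996 RPM in hyperlipidemic and at 2276, 1908, 4803 and 3324 RPM in normal libraries (log2 fold -0.74, SE 0.32, limma adjusted p = 0.258).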

How the data were processed

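The 8 libraries were small RNA libraries of total RNA, size-selected at 140 to 160 bp and read as 50-bp single ends, per the labels' protocols. The tool bcl2fastq 1.8.4 and the build Rnor 6.0 appear in the submitters' processing notes, which give no aligner or counting rule here. The authors deposited a signal in reads per 1000000 (RPM) of the row's class (catalogued or predicted), which the file header calls FPKM. They also deposited a fold (ratio), its log2, a p-value and an adjusted p-value, per the file headers. Low values (up to 20 reads) were whole multiples of 1 step per class and library (100% within 0.1 read), so reads were recovered. As each class has its own step, the signal was tested with limma 3.58.1 (R 4.3.3; two-sided moderated test with a trended variance) after log2(value + 0.475), the pseudocount being the median worth of 1 catalogued read. Folds are on this scale, which understates those of rows with few reads. A miRNA was tested if above 0 in at least 4 libraries with a mean of at least 2.375, and p-values were adjusted by Benjamini-Hochberg over all 696 (threshold 0.05). Arm ratios were fitted likewise over 150 pairs, and the code was tested on simulated data. Groups came from the labels. The members, lists and tests were chosen with earlier results of these data known. Named were all members, the miR-99, miR-100 and miR-125 rows and the 5 closest patterns. Alternatives covered pseudocount, filter, scaling, background, left-out libraries, a replicate block and voom.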

Additional observations from a re-analysis of the deposited data

Results flagged for a closer look

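Values of 4 libraries were examined for a single library far from the other 3 of its group, in 92 sets over the family's levels, shares and arm ratios. It was found in 3 of them, fewer than the about 1 in 20 that chance gives. MiR-98-3p was at 86.6 RPM in hyperlipidemic replicate 4, above the other 3 libraries of its group (68.8 to 71.4 RPM). The passengers' part of the catalogued signal was 0.155% in normal replicate 2, above the 0.145% to 0.147% of the other normal libraries. Let-7g-5p made up 12.9% of the guides in normal replicate 1, below the 13.4% to 13.5% of the other normal libraries. All 3 gaps are small in size.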

How the results depend on the processing

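Over 19 alternative settings no member level and no arm ratio passed the threshold, the lowest adjusted p being 0.140 for levels and 0.0684 for arm ratios, and 44 of 380 fold values and 14 of 198 arm values changed sign. The edgeR and DESeq2 alternatives were not run, since each class of rows has its own step. Without normal replicates 3 and 4 the difference in the guides' part of the catalogued signal moved from -2.48 to 0.060 percentage points, and their median log2 fold was 0.13. Log2 folds then turned to 0.13 (let-7a-5p), 0.28 (let-7e-5p), 0.37 (let-7c-5p), 0.010 (let-7e-3p), 0.19 (let-7c-1-3p), -0.29 (let-7f-1-3p), -0.12 (miR-98-3p), -0.039 (let-7i-3p) and -0.52 (let-7g-3p), and arm ratios to -0.28 (let-7f-2), -0.34 (let-7a-1), -0.31 (let-7b), -0.36 (let-7g) and -0.17 (let-7f-1). For let-7e-5p, let-7c-5p, let-7a-1-3p, let-7c-2-3p and let-7c-1-3p, in this order, log2 folds turned to 0.14, 0.20, 0.10, 0.10 and 0.15 with median-of-ratios scaling (let-7e-3p to 0.027), to 0.17, 0.20, 0.15, 0.15 and 0.077 with quantile normalization, and to 0.10, 0.16, 0.052, 0.052 and 0.11 without red-cell miRNAs. The let-7c-1 arm ratio was 0.038 with a pseudocount of 5, and let-7c-1-3p was 0.012 with voom, an alternative chosen after seeing the data. The cause was not tested.

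Leaving out each library in turn, the log2 folds ran from -0.35 to 0.11 (let-7e-5p), -0.31 to 0.19 (let-7c-5p), -0.13 to 0.28 (let-7d-5p), -0.071 to 0.41 (let-7b-5p), -0.38 to 0.18 (let-7c-1-3p), -0.10 to 0.17 (let-7f-1-3p), -0.13 to 0.34 (let-7i-3p), -0.070 to 0.35 (let-7b-3p) and -0.084 to 0.49 (let-7g-3p). Arm ratios ran from -0.10 to 0.29 (let-7a-1), -0.31 to 0.32 (let-7b), -0.33 to 0.29 (let-7c-1) and -0.37 to 0.14 (let-7c-2). The guides' part of the signal differed by -3.53 to -1.22 percentage points, the let-7f-5p part of the guides by -5.80 to -2.76, and the median guide fold was -0.46 to -0.07. Members at an unadjusted p under 0.05 numbered 0 to 4, against 2 of 20 in the main fit, where 17.8% of all tested miRNAs had it.

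Same-numbered libraries correlated at 0.14, -0.37, -0.32 and -0.01. The labels do not say whether the numbers pair them, and 4 libraries per group are too few to decide it. With the replicate block 0 members and 0 arm pairs passed, and 2 and 1 had an unadjusted p under 0.05. In the main fit these were 2 and 2, where 17.8% of all tested miRNAs and 21.3% of all pairs had it. Shares over all rows are not given here for the alternatives.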
